A study of Mus musculus with 6 samples.

Results

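The prostaglandin receptors and enzymes described here were 9 genes, found by their symbols among the 16281 genes of the count table. They were the receptors Ptger2, Ptger3 and Ptger4 for prostaglandin E2, Ptgir for prostacyclin and Ptgdr2 for prostaglandin D2, the synthesis genes Ptgs2, Ptges3 and Hpgds, and Hpgd, whose product breaks prostaglandins down. RNA was measured by sequencing in CD8+ T cells from the spleens of C57BL/6 mice of genotype Tg(TcraTcrb)1100Mjb (OT1), whose T cells bear 1 transgenic receptor recognising an ovalbumin peptide. All cells were activated for 48 h with anti-CD3 and anti-CD28 (2 μg/ml of each) and IL-2 (20 ng/ml) and then expanded in IL-2 for 3 days. GSK (GSK2879552), an irreversible inhibitor of the histone demethylase LSD1, was present at 0.5 μM throughout in 3 cultures, and vehicle (Veh) in the other 3. The cells are therefore in vitro activated cells of 1 receptor specificity, and neither prostaglandin nor other cell types were added according to the labels. The genes were chosen by their values in the same GSK and Veh samples, so the comparison of GSK with Veh describes these 9 genes, and neither their count nor their p-values are independent evidence for the choice.

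Prostaglandins are lipid mediators made from arachidonic acid, which phospholipases release from membranes. The cyclooxygenases, of which Ptgs2 encodes the inducible form (COX-2), convert it to prostaglandin H2, and terminal synthases then make prostaglandin E2, D2 or prostacyclin. Each acts on neighbouring cells through G protein-coupled receptors. The receptors encoded by Ptger2, Ptger4 and Ptgir raise cyclic AMP through the stimulatory G protein, and those encoded by Ptger3 and Ptgdr2 couple to inhibitory G proteins. In T cells, prostaglandin E2 is best known for restraining receptor signalling, IL-2 production and cytotoxicity through Ptger2 and Ptger4, while Ptgdr2 and Hpgds are known from type 2 lymphocytes, eosinophils and mast cells.

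The counts summed to between 18288447 and 19846720 per sample, and values below are CPM, each count scaled to the TMM-corrected total of its sample. The groups were compared in edgeR (quasi-likelihood test, p-values adjusted by Benjamini-Hochberg) over the 11698 genes left by the filter on low counts. A gene was called where its adjusted p was below 0.05 and its fold change exceeded 1.5. With 3 samples in each group, an exact permutation test of 1 gene cannot give a two-sided p under 0.1. All 8 CD8 T-cell markers (such as Cd8a, Cd8b1 and Cd3e) were tested, with a summed level of 3548 to 3647 CPM in Veh and 3573 to 3698 CPM in GSK. At an adjusted p below 0.05 alone, 2 of them were higher and 4 lower in GSK, against 16.6% and 15.5% of all genes tested. By edgeR 0 were called, and the log2 fold changes ran from -0.50 (Cd5) to 0.23 (Thy1). Markers of B cells summed to 5.94 to 7.94 CPM in Veh and 5.68 to 6.93 CPM in GSK (mostly Cd79b), of myeloid cells to 2.84 to 4.79 and 1.30 to 2.73 CPM, of dendritic cells to 0.435 to 0.805 and 0.626 to 1.21 CPM, of platelets to 1.47 to 2.31 and 0.682 to 1.20 CPM and of NK cells to 1.52 to 2.36 and 2.33 to 3.73 CPM. In these lists the only call was of the 1 platelet marker tested, which was downregulated (log2 fold change -1.08), as were 4.09% of all genes tested. Among the B-cell markers, Cd79b averaged 6.51 CPM in Veh against 4.90 CPM in GSK, whereas Ms4a1 had 0, 2 and 2 counts in Veh and 4, 6 and 8 in GSK, and Cd79a had 3, 1 and 0 counts in Veh and 5, 11 and 5 in GSK. Cd4 averaged 1.19 CPM in Veh against 0.967 CPM in GSK, within a CD4 and regulatory T-cell list of 33.6 to 35.4 CPM in Veh and 21.1 to 28.3 CPM in GSK that was mostly Ikzf2. Within that list only Ikzf2 was called, with a log2 fold change of -0.71. The groups overlapped for Cd4 (-0.30), and also for Foxp3 (0.12) and Trat1 (0.23), which leaned higher. The part of these cell types in the results below was not tested, and fewer cells of a type cannot be told apart from less RNA per cell. Kdm1a, which encodes LSD1, was at 92.8 ± 5.45 CPM (SD, n = 3) in Veh and 87.1 ± 3.54 CPM in GSK (log2 fold change -0.092, adjusted p = 0.22).

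In GSK-treated cells the RNA of the prostaglandin E2 receptors Ptger3 and Ptger4 and of the prostaglandin D2 receptor Ptgdr2 was higher, that of Ptger2 and Ptgir did not pass the test, and the synthase gene Ptges3 was slightly higher. Of the 9 genes, 7 had enough counts to be tested. Ptger3 and Ptgdr2 were called upregulated, where 2.22% of all genes tested were (6.32% in either direction), and 0 were called downregulated by edgeR. Of these 7, DESeq2 also called 0 downregulated, although it gave Ptgdr2 no adjusted p. In edgeR 0 of the 7 were lower at an unadjusted p under 0.05. Ptgs2 and Hpgd were left out of both tests by the filter on low counts. By the adjusted p alone (below 0.05), Ptger4 and Ptges3 were also higher, which makes 4 genes, against 16.6% of all genes tested that were higher on this measure. In the same 4 genes every GSK sample lay above every Veh sample, as in 23.7% of all genes tested (46.7% were without overlap in either direction). Since the list was chosen with this comparison known, nothing is read from these shares. The median log2 fold change of the 7 tested genes was 0.48, and that of all genes tested was -0.0039. Ptgdr2 reached the tested set only through its GSK samples, so its difference was partly required by the filter.

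**Figure D1:**
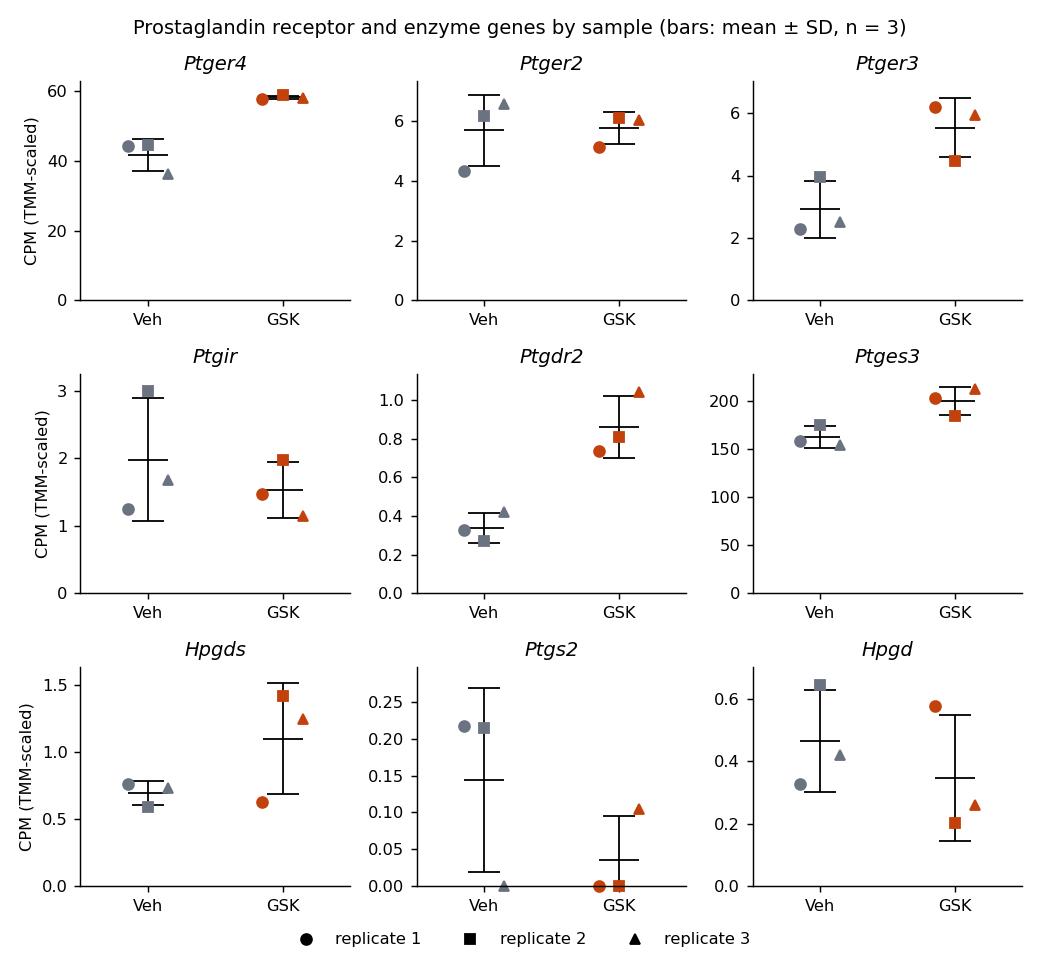
Level of each of the 9 genes in every sample, in TMM-scaled CPM, with circles, squares and triangles for replicates 1 to 3 and bars for the mean ± SD (n = 3), each panel on its own axis from 0. The GSK samples (orange) lie above all Veh samples (grey) for Ptger4, Ptger3, Ptgdr2 and Ptges3, and the groups overlap for Ptger2, Ptgir, Hpgds, Ptgs2 and Hpgd.

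The 9 genes lie on 9 different chromosomes of GRCm38, so none of them are neighbours. Ptger4 lies on the minus strand of chromosome 15 from 5233399 to 5244187, Ptger3 on the plus strand of chromosome 3 from 157566821 to 157644758, Ptger2 on the plus strand of chromosome 14 from 44988111 to 45003820 and Ptgdr2 on the plus strand of chromosome 19 from 10924519 to 10942511. Ptges3 is on chromosome 10 (128058982 to 128077254), Ptgir on chromosome 7 (16906490 to 16910905), Ptgs2 on chromosome 1 (150100031 to 150108234), Hpgd on chromosome 8 (56294552 to 56321046) and Hpgds on chromosome 6 (65117293 to 65144981). Apart from Ptgdr2, only Ptger2 shares annotated exon bases with other genes, with 144 of its 5193 exon bases shared with Gm49364 and 246 with the antisense gene Gm17173.

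The 250 bases before a transcription start (RefSeq, GRCm38.p6) are shown for the 3 receptor genes with higher RNA in GSK and for Ptger2, which did not pass. All are written along the gene from 5′ to 3′. Capitals mark the letters GGGCGG or their reverse complement CCGCCC, which the factor SP1 is known to bind, and, near the left end of Ptger3, AAATCA, which holds the core bound by GFI1, a repressor known to recruit LSD1.
Ptger4: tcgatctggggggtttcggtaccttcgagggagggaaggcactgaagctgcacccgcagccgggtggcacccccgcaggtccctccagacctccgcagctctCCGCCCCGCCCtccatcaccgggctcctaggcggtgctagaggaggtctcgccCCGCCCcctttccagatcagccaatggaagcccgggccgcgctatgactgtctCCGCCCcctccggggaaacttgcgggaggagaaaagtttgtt
Ptger3: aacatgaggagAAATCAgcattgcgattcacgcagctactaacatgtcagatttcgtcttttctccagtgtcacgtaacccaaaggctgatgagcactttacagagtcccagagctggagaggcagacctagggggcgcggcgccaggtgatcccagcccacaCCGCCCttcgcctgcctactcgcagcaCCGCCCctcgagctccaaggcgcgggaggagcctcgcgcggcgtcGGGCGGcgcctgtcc
Ptgdr2: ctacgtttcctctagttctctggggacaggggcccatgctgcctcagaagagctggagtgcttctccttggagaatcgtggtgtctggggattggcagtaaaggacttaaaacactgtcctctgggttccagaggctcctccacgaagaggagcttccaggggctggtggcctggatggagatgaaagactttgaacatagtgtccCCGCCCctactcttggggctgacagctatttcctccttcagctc
Ptger2: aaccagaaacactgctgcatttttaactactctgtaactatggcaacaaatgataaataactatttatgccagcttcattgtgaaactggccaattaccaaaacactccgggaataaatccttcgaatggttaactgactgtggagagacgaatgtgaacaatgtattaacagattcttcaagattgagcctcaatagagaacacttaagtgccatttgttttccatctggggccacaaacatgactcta
They are chr15:5244188-5244437 on the minus strand for Ptger4 and chr3:157566626-157566875, chr19:10936910-10937159 and chr14:44987861-44988110 on the plus strand for Ptger3, Ptgdr2 and Ptger2. For Ptgdr2 and Ptger3 the start used lies inside the annotated gene region.

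The 4 promoters differed in composition. Ptger4 held 66.8% G and C with 19 CpG pairs and Ptger3 62.0% with 21 CpG pairs, while Ptgdr2 held 55.2% with 4 and Ptger2 38.0% with 3, where the median of 21263 protein-coding promoters was 55.6% with 10. The letters GGGCGG occurred on either strand at 4 places before Ptger4, overlapping by a base at the pair farthest from the start, at 3 places before Ptger3, at 1 before Ptgdr2 and at 0 before Ptger2. They also occurred before Ptges3 (3 places), Ptgir (2), Ptgs2 (1) and Hpgd (1) and not before Hpgds, so 7 of the 9 promoters held them, including those of genes that were not higher in GSK. Of all 32851 promoters of this length 32.7% held them, and of the protein-coding ones 42.6%. AAATCA lay 239 bases before the start of Ptger3 and in no other promoter of the 9 genes, and 12.4% of all promoters held it. The letters TGACG, the core of the cyclic AMP response element, were found in 0 of the 9 promoters and in 17.8% of all promoters. The letters AGATAA, 1 of the forms that GATA factors bind, were found in 0 of the 9 and in 9.99% of all. Other forms were not searched, and the Ptger2 stretch holds TGATAA. The letters of the classical core promoter box, TATAAA, was found in 0 of the 9 and in 12.4% of all, each on either strand. These matches describe letters in this window and do not locate a bound factor.

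Ptger4 encodes EP4, a cyclic AMP-raising receptor for prostaglandin E2. It had the highest level per exon length of the receptors among the 9 genes in both groups. Its RNA was 44.3, 44.6 and 36.3 CPM in Veh replicates 1 to 3 and 58.0, 58.9 and 58.2 CPM in GSK replicates 1 to 3. Every GSK sample was above every Veh sample, and the GSK samples lay closer together than the Veh samples, a difference in spread that was not tested. The means were 41.7 ± 4.70 CPM (SD, n = 3) and 58.4 ± 0.460 CPM, a 1.40-fold difference (log2 fold change 0.48 ± 0.075 SE, adjusted p = 4.4e-04). This passed the adjusted p but not the fold change of 1.5. Its log2 fold change stayed between 0.39 and 0.53 under all 13 alternatives.

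Ptger3 encodes EP3, the prostaglandin E2 receptor that couples to inhibitory G proteins and exists in several splice forms. Its RNA was 2.28, 3.97 and 2.52 CPM in the Veh samples and 6.19, 4.45 and 5.94 CPM in the GSK samples, from 42 to 74 counts in Veh and 88 to 118 counts in GSK. The groups did not overlap, although Veh replicate 2 and GSK replicate 2 came close to each other. The means were 2.93 ± 0.912 CPM (SD, n = 3) in Veh and 5.53 ± 0.941 CPM in GSK, a 1.89-fold difference (log2 fold change 0.92 ± 0.23 SE, adjusted p = 0.0085). Ptger3 was called under 12 of 13 alternatives. The exception was a test of the fold change against 1.5 (adjusted p = 0.76), and among the rest the adjusted p reached up to 0.048.

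Ptger2 encodes EP2, the other cyclic AMP-raising receptor for prostaglandin E2. Its RNA was 4.35, 6.17 and 6.57 CPM in the Veh samples and 5.14, 6.12 and 6.05 CPM in the GSK samples, so the groups overlapped throughout. The log2 fold change was 0.018 with a 95% interval from -0.36 to 0.40 (adjusted p = 0.95), an interval that still holds differences of the size seen for Ptges3.

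The responses of these 3 receptors to GSK were not tested against each other, and the ratios of their counts within a sample are given as a description. Between 5.53 and 10.2 Ptger4 reads were counted for each Ptger2 read in Veh and between 9.61 and 11.3 in GSK, so these ranges overlapped. The Ptger4 to Ptger3 ratio ran from 11.2 to 19.4 in Veh and from 9.36 to 13.2 in GSK, which also overlapped. Ptger3 reads per Ptger2 read went from 0.384 to 0.643 in Veh to 0.727 to 1.20 in GSK, without overlap.

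Ptgir, which encodes the prostacyclin receptor IP, was at 1.25, 3.00 and 1.68 CPM in the Veh samples and 1.47, 1.97 and 1.15 CPM in the GSK samples. Veh replicate 2 was the highest sample, with 56 counts, and the groups overlapped. The log2 fold change was -0.37 with a 95% interval from -1.12 to 0.38 (adjusted p = 0.45). Without Veh replicate 2 it was 0.061, so the direction rested on that sample.

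Ptgdr2 encodes DP2 (CRTH2), a chemoattractant receptor for prostaglandin D2, and was near the lower limit of what could be measured. It had 6, 5 and 8 counts in the Veh samples and 14, 16 and 20 counts in the GSK samples, or 0.326, 0.268 and 0.420 CPM against 0.735, 0.810 and 1.04 CPM. The groups did not overlap. The log2 fold change was 1.33 with a 95% interval from 0.43 to 2.23 (SE 0.42, adjusted p = 0.027). Only its GSK samples passed the filter on low counts, so this difference was partly required and its p-value is not independent evidence. Of 13 alternatives, 11 gave Ptgdr2 an adjusted p, and a filter of at least 1 CPM in 3 samples removed it. The gene was called under 5 of these 11, 1 of them the main fit at the adjusted p alone. Its adjusted p ran up to 0.10, or 0.63 in the test of the fold change against 1.5. It was not called without a filter on low counts (0.051), without Veh replicate 1 (0.081), without Veh replicate 2 (0.089), without GSK replicate 1 (0.052) or without GSK replicate 3 (0.10), and DESeq2 gave it no adjusted p (unadjusted p = 0.034).

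The last exon of Ptgdr2 overlaps Ccdc86, a gene on the opposite strand, over 1031 of the 2644 annotated exon bases of Ptgdr2 (39.0%). Ccdc86 itself, named here after its value was seen, was at 17.7 ± 0.140 CPM (SD, n = 3) in Veh and 28.2 ± 4.12 CPM in GSK and was called upregulated (log2 fold change 0.67 ± 0.099 SE, adjusted p = 3.5e-04). The libraries were stranded, but whether the counting used the strand is not given in the sources used here. If it did not, reads of these genes in the shared stretch cannot be told apart.

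Among the 5 receptors of the 9 genes, Ptger4 held most of the RNA once counts were divided by exon length. Other prostanoid receptors, such as Tbxa2r, were not part of this sum. Its share of their summed CPM per kb was 73.0% ± 5.47 (SD, n = 3) in Veh and 75.4% ± 0.477 in GSK, with overlapping samples. Ptger2 held 12.8% ± 3.11 in Veh and 9.54% ± 0.813 in GSK, again with overlapping samples. The share of Ptger3 was 5.90% ± 1.26 in Veh and 8.36% ± 1.47 in GSK, that of Ptgir 6.76% ± 2.47 and 3.94% ± 1.06, and that of Ptgdr2 1.52% ± 0.488 and 2.80% ± 0.503. Only for Ptgdr2 did the samples of the groups not overlap, with 1.06% to 2.03% in Veh and 2.41% to 3.37% in GSK. That share rests on 5 to 8 counts in each Veh sample and includes the exon stretch shared with Ccdc86, and it was not tested.

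**Figure D2:**
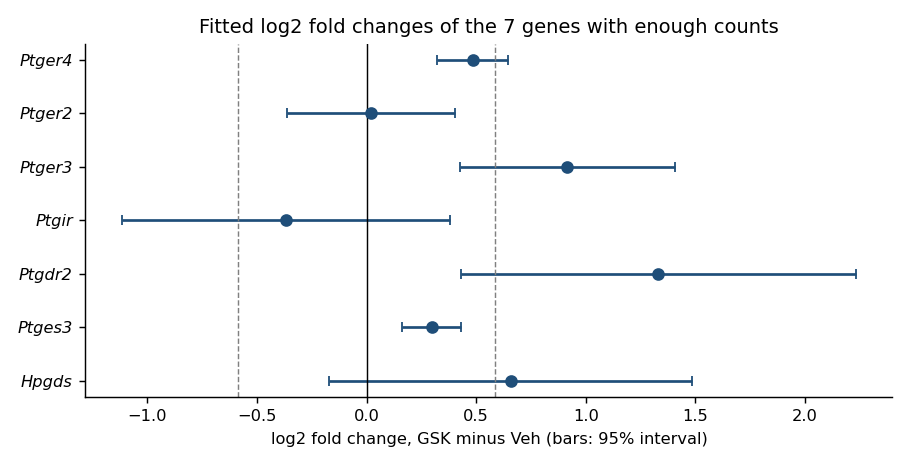
Fitted log2 fold change (GSK minus Veh) of the 7 tested genes with 95% intervals, the solid line marking 0 and the dashed lines a fold change of 1.5 in either direction. Ptger4 and Ptges3 have the narrowest intervals and stay above 0, and the interval of Ptgdr2, from 0.43 to 2.23, is the widest of those above 0.

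Ptges3 encodes p23, a co-chaperone of HSP90 that is also described as the cytosolic prostaglandin E synthase. Its RNA was 158, 175 and 154 CPM in the Veh samples and 203, 184 and 212 CPM in the GSK samples. Every GSK sample was above every Veh sample. The means were 162 ± 11.1 CPM (SD, n = 3) in Veh and 199 ± 14.3 CPM in GSK, a 1.23-fold difference (log2 fold change 0.30 ± 0.061 SE, adjusted p = 0.0034), below the fold change of 1.5. A processed pseudogene named Ptges3-ps is annotated, so the assignment of reads shared with it is uncertain.

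Hpgds encodes the hematopoietic prostaglandin D synthase, which makes the ligand of Ptgdr2. It had 14, 11 and 14 counts in Veh and 12, 28 and 24 counts in GSK. GSK replicate 1 lay among the Veh samples and the other GSK samples above them. The levels were 0.696 ± 0.0924 CPM (SD, n = 3) in Veh against 1.10 ± 0.415 CPM in GSK. The log2 fold change of 0.66, with a 95% interval from -0.17 to 1.49, did not pass (adjusted p = 0.21).

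Ptgs2 and Hpgd did not have enough counts to be tested. Ptgs2, the inducible cyclooxygenase, had 4, 4 and 0 counts in the Veh samples and 0, 0 and 2 counts in the GSK samples. A count of 0 allows up to 0.158 CPM in Veh replicate 3, 0.157 CPM in GSK replicate 1 and 0.152 CPM in GSK replicate 2, taking 3 counts as the limit and covering counting error only. In edgeR without a filter on low counts, the log2 fold change of Ptgs2 was -1.86 ± 1.29 (SE, adjusted p = 0.34). It leaned lower but did not pass at this depth. Hpgd, the 15-hydroxyprostaglandin dehydrogenase that inactivates prostaglandin E2, had 6, 12 and 8 counts in Veh and 11, 4 and 5 counts in GSK, with overlapping groups. Fitted without a filter on low counts, its log2 fold change was -0.42 ± 0.61 (SE, adjusted p = 0.67).

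Levels of different genes can be compared only per length, here as CPM per kb of annotated exon. In Veh, Ptges3 was highest at 73.2 ± 5.03 CPM per kb (SD, n = 3), followed by Ptger4 at 6.28 ± 0.707, Ptger2 at 1.10 ± 0.228, Ptgir at 0.594 ± 0.274, Ptger3 at 0.514 ± 0.160, Hpgd at 0.275 ± 0.0969, Ptgdr2 at 0.128 ± 0.0290, Hpgds at 0.108 ± 0.0144 and Ptgs2 at 0.0315 ± 0.0272 CPM per kb. In this order the samples of Ptger2 and Ptgir overlapped, as did those of Ptgir and Ptger3 and those of Ptgdr2 and Hpgds. The other neighbours did not overlap. In GSK, Ptges3 was at 90.0 ± 6.46, Ptger4 at 8.78 ± 0.0692, Ptger2 at 1.11 ± 0.105 and Ptger3 at 0.972 ± 0.165 CPM per kb, and the samples of Ptger2 and Ptger3 overlapped. Ptger3 thus stood above Ptgir (0.459 ± 0.125 CPM per kb) in GSK without overlap, whereas it overlapped Ptgir in Veh. Below these, Ptgdr2 was at 0.326 ± 0.0607, Hpgd at 0.206 ± 0.120, Hpgds at 0.171 ± 0.0646 and Ptgs2 at 0.00759 ± 0.0131 CPM per kb in GSK. The samples of Ptgir and Ptgdr2 overlapped, as did those of Ptgdr2 and Hpgd and those of Hpgd and Hpgds. The levels depend on the length used. Per kb of the longest transcript, the Veh means were 11.1 for Ptger4, 0.818 for Ptger3 and 0.179 for Hpgds, which put Ptger3 above Ptgir (0.599) and Hpgds above Ptgdr2 (0.128) in Veh, and Hpgds (0.283) above Hpgd (0.206) in GSK, all with overlapping samples.

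**Figure D3:**
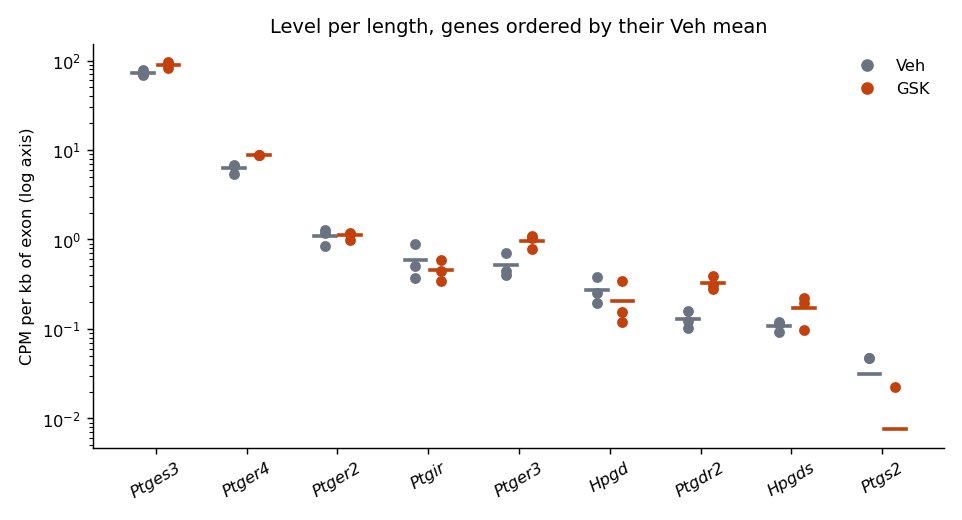
CPM per kb of annotated exon on a log axis for each gene in the order of its Veh mean, with points for samples and short lines for group means (n = 3). Samples with 0 counts, found only for Ptgs2, have no point, and the spacing shows Ptges3 and Ptger4 above all other genes in both groups.

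Other genes that supply, make, receive, carry or break down prostanoids were described from a list of 28, of which 27 were matched and 17 tested. Ptgfrn was called upregulated and 0 were called downregulated by edgeR, as by DESeq2, with 5 lower at an unadjusted p under 0.05. Over all genes tested the shares called were 2.22% and 4.09%, and without GSK replicate 1 or 2 the downregulated count was 1. At the adjusted p alone 3 were higher and 3 lower, against 16.6% and 15.5% of all genes tested, and the median log2 fold change was -0.052. Ptgfrn encodes a membrane protein known as an inhibitor of prostaglandin F2α binding to its receptor and as a partner of tetraspanins. It was at 13.8, 18.1 and 17.9 CPM in Veh and 32.1, 31.0 and 34.4 CPM in GSK (log2 fold change 0.97 ± 0.099 SE, adjusted p = 2.6e-05), with no overlap, and it was called under every alternative run. The prostaglandin E synthase Ptges, which is the inducible form, was at 1.62 ± 0.454 CPM (SD, n = 3) in Veh and 0.823 ± 0.404 CPM in GSK, a log2 fold change of -0.97 that did not pass (adjusted p = 0.067). Ptgs1, the constitutive cyclooxygenase, was at 0.944 ± 0.159 and 0.601 ± 0.207 CPM (adjusted p = 0.22). Ptgdr, the other prostaglandin D2 receptor, had a total of 1 count in the 6 samples. Tbxa2r, the thromboxane receptor, was at 46.6 ± 1.51 CPM (SD, n = 3) in Veh and 42.4 ± 3.69 CPM in GSK (adjusted p = 0.16). Ptger1, another prostaglandin E2 receptor, was at 0.839 ± 0.482 and 0.845 ± 0.0513 CPM (adjusted p = 0.99). Levels per kb were not computed for either.

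Downstream of the receptors, 33 genes of cyclic AMP signalling were tested of 36 listed. Of these, Arrb1, Pde4d and Rapgef3 were called downregulated, where 4.09% of all genes tested were, and 0 were called upregulated by edgeR, as by DESeq2, with 4 higher at an unadjusted p under 0.05. At the adjusted p alone 12 were lower and 3 higher, against 15.5% and 16.6% of all genes tested, and the median log2 fold change was -0.11. Arrb1, which encodes the β-arrestin that uncouples activated receptors, fell from 221 ± 18.8 CPM (SD, n = 3) to 93.3 ± 18.2 CPM (log2 fold change -1.24 ± 0.16 SE, adjusted p = 0.0039). Pde4d, a phosphodiesterase that degrades cyclic AMP, fell from 115 ± 7.48 to 73.8 ± 7.66 CPM (log2 fold change -0.63 ± 0.073 SE, adjusted p = 1.1e-04). Rapgef3 encodes EPAC1, a cyclic AMP-gated exchange factor for Rap, and went from 2.98 ± 0.572 to 1.81 ± 0.0351 CPM (log2 fold change -0.72, adjusted p = 0.033). It lost the call with DESeq2 (0.070), with the replicate block (0.057), without Veh replicate 1 (0.16) without GSK replicates 1, 2 or 3 (0.082, 0.067 and 0.071) and in the test of the fold change against 1.5. Creb1, a factor that binds cyclic AMP response elements, averaged 144 ± 6.31 CPM in Veh against 121 ± 2.32 CPM in GSK (log2 fold change -0.25, adjusted p = 0.0014), below the fold change of 1.5. Among the others lower without reaching it were the cyclase gene Adcy7 (-0.45, adjusted p = 6.4e-04), the phosphodiesterase gene Pde3b (-0.40, adjusted p = 8.9e-05) and the kinase subunit gene Prkacb (-0.28, adjusted p = 0.0022). Higher in GSK, also below that fold change, were Pde4a, another phosphodiesterase (log2 fold change 0.51, adjusted p = 0.0023), and Prkar2a, a kinase subunit (0.33, adjusted p = 0.0024).

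Of 12 genes known to be induced by cyclic AMP, 10 were tested, with a median log2 fold change of -0.015. Dusp1, a phosphatase of MAP kinases, was called upregulated, with 10.4 ± 0.952 CPM (SD, n = 3) in the Veh samples and 21.0 ± 2.01 CPM in the GSK samples (log2 fold change 1.01 ± 0.10 SE, adjusted p = 2.8e-05). Sik1, a salt-inducible kinase, was called downregulated, from 30.4 ± 2.51 to 18.3 ± 1.98 CPM (log2 fold change -0.73 ± 0.093 SE, adjusted p = 1.2e-04). With 1 gene called in each direction, the other 8 were not called, and over all genes tested 2.22% were called upregulated and 4.09% downregulated. The upregulated count was 2 with DESeq2, with the replicate block and without Veh replicate 3, and the downregulated count was 2 without Veh replicate 1.

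Leukotrienes are the other products of arachidonic acid. Of 15 genes of their synthesis and receptors, 10 were tested, 2 were called downregulated and 0 upregulated by edgeR, as by DESeq2, with 0 higher at an unadjusted p under 0.05. Over all genes tested 4.09% were called downregulated and 2.22% upregulated, and without GSK replicate 1 the downregulated leukotriene genes were 4. Ltb4r1, the high-affinity receptor for leukotriene B4, had 208, 247 and 343 counts in Veh and 127, 111 and 93 counts in GSK, or 14.2 ± 3.45 and 5.71 ± 0.913 CPM (log2 fold change -1.31 ± 0.18 SE, adjusted p = 3.2e-04), without overlap and called under every alternative run. Mgst2, a microsomal glutathione transferase that can make leukotriene C4, fell from 56.8 ± 6.69 to 33.2 ± 3.08 CPM (log2 fold change -0.78 ± 0.093 SE, adjusted p = 1.4e-04). The median log2 fold change of the 10 was -0.43. The synthesis gene Alox5 had at most 1 count in any sample.

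Type 2 lymphocyte genes were set beside Ptgdr2 and Hpgds. Of the 10 listed, 4 were tested and all 4 were called, 3 higher and 1 lower, against 2.22% and 4.09% of all genes tested. Ccr4, a chemokine receptor, rose from 25.0 ± 3.99 CPM (SD, n = 3) to 39.0 ± 6.06 CPM (log2 fold change 0.64, adjusted p = 0.0082), Il1rl1, the IL-33 receptor, from 7.83 to 9.04 CPM in Veh to 11.5 to 17.0 CPM in GSK (0.72, adjusted p = 0.0023) and Maf, a transcription factor, from 6.03 ± 0.0940 to 10.8 ± 3.44 CPM (0.84, adjusted p = 0.0092). Without GSK replicate 3, Il1rl1 and Maf fell below the fold change of 1.5 with log2 fold changes of 0.55 and 0.58, and Ccr4 did so without Veh replicate 3 (0.54) or GSK replicate 1 (0.51). Gata3, the factor that defines type 2 cells, fell from 38.6 ± 3.19 to 20.7 ± 2.90 CPM (log2 fold change -0.90 ± 0.099 SE, adjusted p = 6.0e-05). The defining cytokines were near 0, with at most 5 counts of Il4, 1 of Il5 and 4 of Il13 in any sample. Mast cell, basophil and eosinophil markers summed to 6.04 to 7.08 CPM in Veh and 4.59 to 7.03 CPM in GSK over 7 matched genes of 10, mostly Kit, with at most 5 counts of Cpa3, 6 of Mcpt8 and 1 of Prg2 in any sample. Epx, the eosinophil peroxidase, had 0, 1 and 0 counts in Veh and 6, 2 and 3 counts in GSK, too few to test. Siglecf, another eosinophil marker, had 5 to 9 counts in Veh and 16 to 18 counts in GSK and did not pass (adjusted p = 0.061). Their part in the Ptgdr2 and Hpgds values was not tested.

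**Figure D4:**
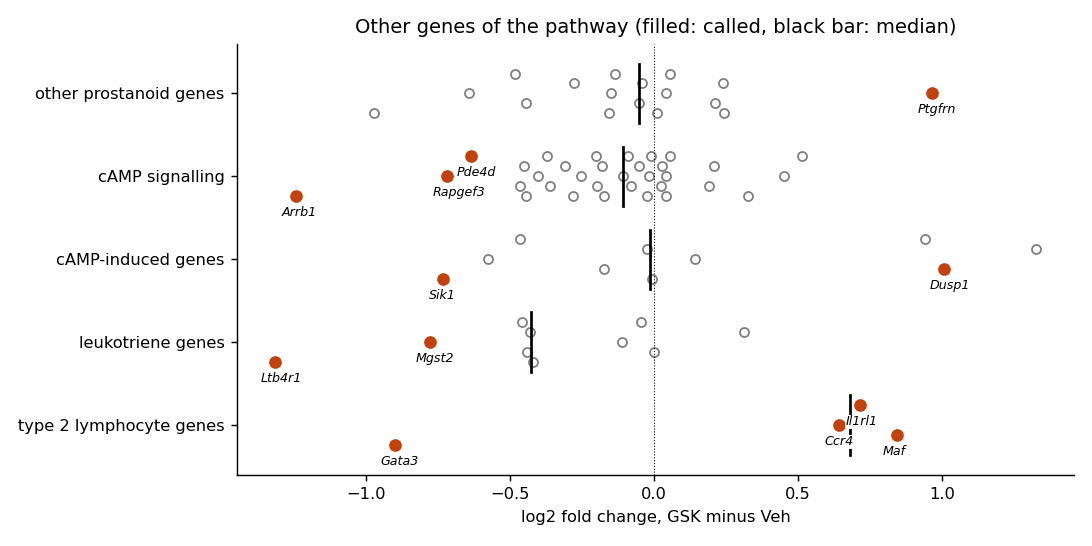
Log2 fold change (GSK minus Veh) of every tested gene in 5 lists around the receptors, with filled points for called genes, open points for the rest and a black bar at each list's median. The leukotriene genes have the lowest median (-0.43), and the type 2 list has 3 called genes above and 1 below 0.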

How the data were processed

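RNA of 6 samples was analysed from 1 table of counts per gene. The authors trimmed reads with Trimmomatic, mapped them to GRCm38 with HISAT2 (2.1.0) and counted them with HTSeq (0.11.2); the deposited counts are whole numbers without normalization. The annotation release and the strand setting are not given in the sources used here. The authors' own tests used DESeq2 (1.22.2) at the thresholds applied here.

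Counts were tested in R (4.3.3) with edgeR (4.0.16): TMM scaling, filterByExpr (10 counts at the median library in at least 3 samples), a robust quasi-likelihood fit, and Benjamini-Hochberg adjustment across the 11698 genes tested. Standard errors came from the test statistic and 95% intervals from its degrees of freedom. DESeq2 (1.42.0) was an alternative. The tests were checked on simulated counts. Lengths and exon overlaps came from GENCODE M21, coordinates and promoters from RefSeq, matched by gene identifier for 9 of 9 genes.

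The genes and lists were chosen with earlier results of these data known. Named were all 9 genes, Kdm1a and, from each list, up to 8 called genes by smallest p; uncalled genes, untested genes and Ccdc86 were named after their values were seen. No replicate pair of a group agreed within sampling noise (chi-square divided by its degrees of freedom, 4.08 to 9.42). The study names 3 mice per group and p-values cover the spread between these samples. Total counts lay between 18288447 and 19846720 per sample, which left Ptgs2 and Hpgd untested.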

Additional observations from a re-analysis of the deposited data

How the results depend on the processing

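Among the genes named with a fit, 225 of the values under alternatives kept their direction and their side of the thresholds, 26 lost the call, 2 gained it and 4 turned direction. The turned values were Ptger2 without Veh replicate 1 (log2 fold change -0.14), without GSK replicate 2 (-0.028) and without GSK replicate 3 (-0.019), and Ptgir without Veh replicate 2 (0.061). Over the left-out samples Ptger2 ran from -0.14 to 0.13 and Ptgir from -0.61 to 0.061. Both gains came from the adjusted p alone (Ptger4 and Ptges3).

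A test of the fold change against 1.5 left 69 genes upregulated and 65 downregulated in all, against 260 and 479, and 0 cyclic AMP signalling genes, 0 cyclic AMP-induced genes and 1 leukotriene gene downregulated. It left 0 type 2 genes in either direction. The adjusted p alone gave 1941 upregulated and 1819 downregulated genes, 3 and 3 among the other prostanoid genes, 3 and 12 in cyclic AMP signalling, and, downregulated, 3 cyclic AMP-induced and 4 leukotriene genes. DESeq2 and the replicate block each gave 2 upregulated cyclic AMP-induced genes in place of 1. Leaving out 1 sample gave 224 to 291 upregulated and 403 to 547 downregulated genes, 0 to 1 downregulated other prostanoid gene (1 upregulated), 0 to 1 upregulated and 2 to 3 downregulated cyclic AMP signalling genes, 1 to 2 cyclic AMP-induced genes in either direction, 2 to 4 downregulated leukotriene genes, and 1 to 3 upregulated type 2 genes (1 downregulated). The cause of these changes was not tested.

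Whether Veh and GSK samples sharing a replicate number came from the same mouse is not given in the sources used here. Samples sharing a number deviated from their group means with correlations across genes of -0.052, -0.081 and 0.16. With so few samples these values cannot decide whether cultures shared a mouse, and the main test treated the samples as unpaired. With the number as a replicate block, 253 genes were upregulated and 447 downregulated, and of the named genes only Rapgef3 lost its call (adjusted p = 0.057). Ptger3 (0.024) and Ptgdr2 (0.044) were called. Dividing by the longest transcript in place of the union of exons, chosen after seeing the data, moved 10 of the levels per kb by over 1 SD and reordered Ptger3 and Ptgir, and Hpgds and Ptgdr2, in Veh and Hpgds and Hpgd in GSK. Depth limits Ptgdr2, Hpgds, Hpgd and Ptgs2, which had at most 28 counts in any sample.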
